A study of Homo sapiens with 12 samples.

Results

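Mitochondrial ribosomal protein genes are the nuclear genes, named MRPL for the large and MRPS for the small subunit, whose products build the ribosome inside mitochondria. Members were taken by symbol alone: every gene whose symbol is MRPL or MRPS followed by a number, with or without a final letter A, B or C. This gave 78 genes, 49 MRPL and 29 MRPS, among 25433 genes in either of 2 count tables. All 78 stood in both tables and passed the filter on low counts in every comparison, with at least 207 reads in each library.

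The cells were A549, a human lung adenocarcinoma line with alveolar epithelial features, at passages 5 to 10 in F-12K medium with fetal bovine serum. One group received 10 ng/mL TGF-β1, a growth factor that moves epithelial cells towards a mesenchymal state, together with 40 mM sodium acetate, a short-chain fatty acid salt, for 2 days. Another group received TGF-β1 alone, and the last was the control, with no agent named in its labels. Each group had 4 libraries of stranded total RNA depleted of ribosomal RNA. Acetate was given only on top of TGF-β1, and sodium had no control of its own. No sample label names the count columns (S22 to S25, S15 to S18 and S1 to S4), which were placed in their groups by the names of the tables that hold them, and every comparison rests on that placement. The labels do not tell whether replicate libraries stem from different cultures, and p-values therefore measure the spread between libraries, which may be technical.

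The mitochondrial ribosome reads the few messenger RNAs made from mitochondrial DNA, nearly all of which encode core subunits of the respiratory chain complexes. Its own RNAs are encoded in mitochondria, while every one of its proteins is encoded in the nucleus, made in the cytosol and imported, so both genomes must supply it together. Compared with a bacterial ribosome it has less RNA and more protein, and many of its proteins have no bacterial counterpart. Mitochondrially encoded genes were not analysed here.

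Library totals ran from 34698057 to 41575904 counts with TGF-β1 and acetate, 37202599 to 53936023 with TGF-β1 and 38400896 to 53055990 in control, so 3 counts were worth 0.0564 to 0.0856 CPM. CPM are read counts divided by library size, here adjusted by the trimmed mean of M-values (TMM). The epithelial keratins KRT8, KRT18 and KRT7 were abundant in every group, with KRT8 at 2525 ± 169 CPM with TGF-β1 and acetate, 2237 ± 116 CPM with TGF-β1 and 2250.3 ± 78.02 CPM in control (SD, n = 4 each). TGFBI, an extracellular matrix gene induced by TGF-β, stood at 12178 ± 372 CPM with TGF-β1 and acetate, 14958 ± 425 CPM with TGF-β1 and 1328 ± 41.5 CPM in control. All 4 fibroblast markers were listed, and their summed level was 18.1 to 20.8 CPM with TGF-β1 and acetate. With TGF-β1 that sum was 7.05 to 8.60 CPM, and in control 0.771 to 1.14 CPM. LUM made up most of it, at 15.3, 4.36 and 0.407 CPM in these groups. PDGFRA and DCN had the same order of means. PDGFRB did not, at 0.645 CPM with TGF-β1 and acetate, 1.41 CPM with TGF-β1 and 0.270 CPM in control. Of 8 leukocyte and endothelial markers the tables list 1, CD68, at 21.6 to 23.3 CPM with TGF-β1 and acetate, 13.1 to 16.3 CPM with TGF-β1 and 9.78 to 12.5 CPM in control. E-cadherin (CDH1), an epithelial adhesion gene, stood at 45.5 ± 2.56, 1.46 ± 0.394 and 58.7 ± 2.796 CPM. KRT18, KRT19 and EPCAM were also lowest with TGF-β1, while KRT7 was lowest in control. KRT7 had 2683, 2268 and 1809 CPM and KRT18 1840, 1456 and 1954.5 CPM, in the order of groups above. KRT19 had 58.4, 7.01 and 36.6 CPM and EPCAM 5.63, 1.08 and 4.22 CPM, in the same order of groups. Small RNA genes took 6.23 to 7.48% of counts with TGF-β1 and acetate, 7.82 to 9.19% with TGF-β1 and 7.74 to 10.1% in control. The part of these markers and shares in the results on ribosomal protein genes was not tested. As RNA came from whole cultures, fewer cells of one kind and less RNA per cell cannot be told apart.

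The members were moderately expressed and evenly measured. Mean levels ran from 6.39 to 116 CPM with TGF-β1 and acetate, with a median of 35.03 CPM, from 8.11 to 163 CPM with TGF-β1 (median 45.2 CPM), and from 9.57 to 164 CPM in control (median 48.2 CPM). Per kilobase of transcript, MRPL51 and MRPL33 stood highest, at 197 and 144 RPKM (CPM divided by transcript length in kilobases) over the 12 libraries, and MRPL22 and MRPS14 lowest, at 6.28 and 11.8 RPKM. The RPKM of the members spanned more than an order of magnitude in every group. The spread between libraries was small, with a median coefficient of variation of 4.40% with TGF-β1 and acetate, 4.43% with TGF-β1 and 3.32% in control.

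MRPL23 was the exception to that evenness. It encodes a protein of the rim of the polypeptide exit tunnel (ENSG00000214026.10, chromosome 11, 1947278 to 1984522, plus strand). Its level was 5.75, 17.2, 7.07 and 12.2 CPM in the 4 libraries with TGF-β1 and acetate, 7.62, 8.16, 8.48 and 8.16 CPM with TGF-β1 and 6.67, 18.96, 5.75 and 6.88 CPM in control. Control library S2 and acetate libraries S23 and S25 stood well above the rest of their groups, and no comparison of MRPL23 passed the test on all libraries. Without control library S2 its log2 fold change for TGF-β1 against control was 0.30 (adjusted p = 0.00375, edgeR), where all libraries gave -0.24. Acetate against TGF-β1 passed without acetate library S22 (0.59, adjusted p = 0.0216) or S24 (0.54, adjusted p = 0.0391).

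**Figure D1:**
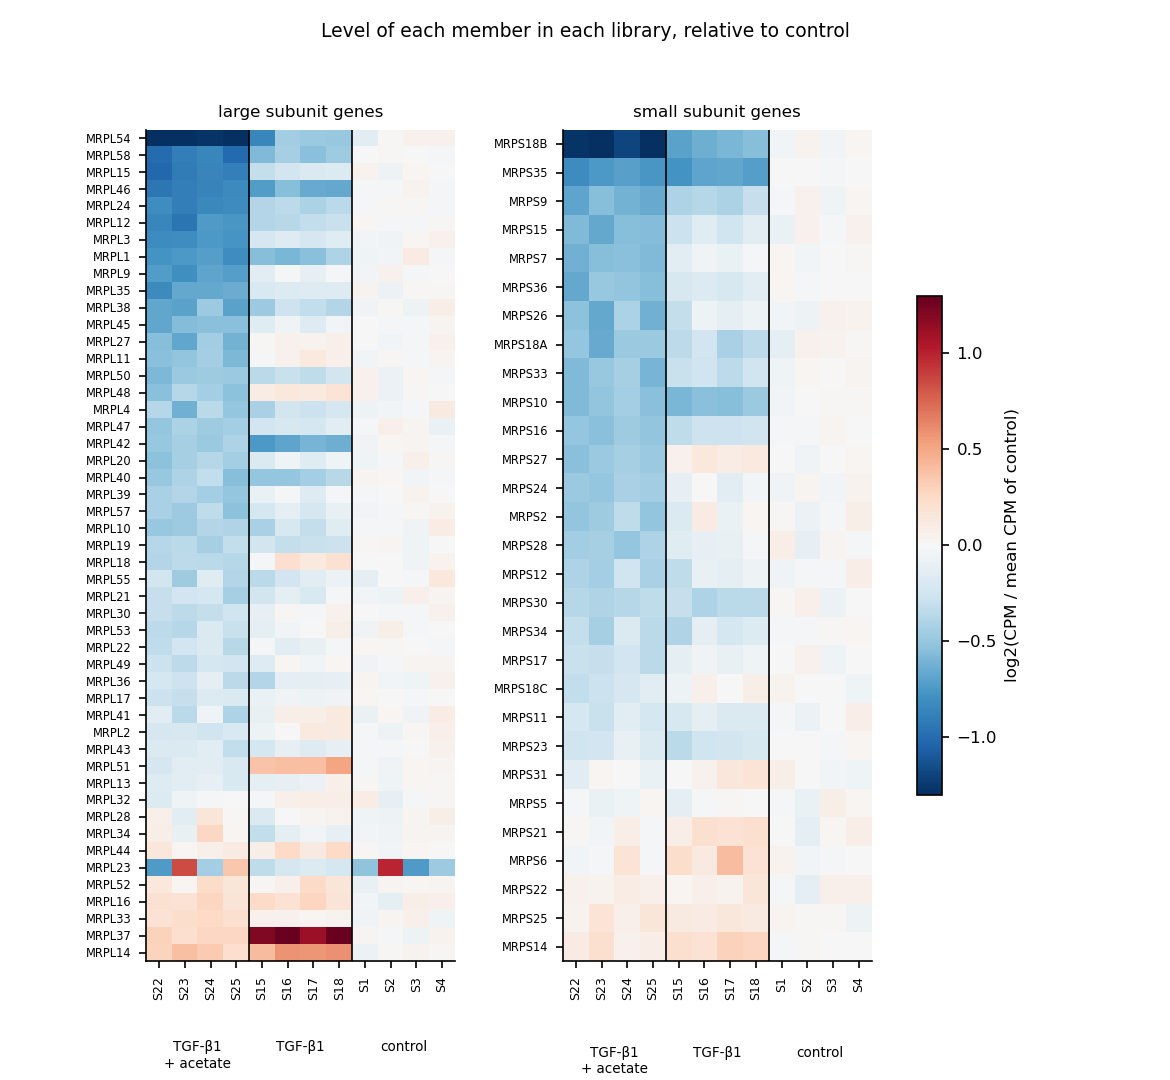
Level of each of the 78 members in each of 12 libraries, as log2 of CPM over the mean CPM of control, with rows ordered by the change with TGF-β1 and acetate against control. Most rows are palest in control, bluer with TGF-β1 and bluest with TGF-β1 and acetate, while MRPL37 and MRPL51 are red with TGF-β1 and MRPL23 is uneven among replicates.

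TGF-β1 against control asks how the growth factor alone moved these genes. Of the 78 members 39 fell, 13 rose and 26 did not pass the test (edgeR quasi-likelihood test, Benjamini-Hochberg adjusted p below 0.05). Over all 22051 genes tested, 32.8% fell and 34.1% rose, where 50% of the members fell and 16.7% rose. The median log2 fold change of the members was -0.12, beside 0.02 over all genes. For 37 members all TGF-β1 libraries lay below all control libraries and for 11 all lay above, where 30.4% and 31.1% of all genes had no overlap. By more than 1.5-fold 4 members fell and 1 rose, beside 15.4% and 16% of all genes. With library totals in place of TMM, 55 members were lower and 6 higher, beside 39.3% and 27.6% of all genes; that scaling moved the median of all genes to -0.09, and the members stood 0.14 below it, the same distance as with TMM.

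MRPL37 moved most, and upward. It encodes a protein specific to mitochondria that sits in the large subunit beside the product of MRPS30 (ENSG00000116221.15, chromosome 1, 54184041 to 54225464, plus strand). It had 155, 164, 145 and 163 CPM with TGF-β1 and 68.7, 66.6, 64.1 and 69.2 CPM in control. All TGF-β1 libraries stood far above all control libraries, and the log2 fold change was 1.23 (SE 0.04), adjusted p = 2.36e-13. On the opposite strand it shares 33 exonic bases with SSBP3, a gene for a DNA-binding transcription cofactor, which had 39.97 CPM with TGF-β1 and 7.199 CPM in control. It also shares 140 bases with CYB5RL, at 9.52 CPM with TGF-β1 and 7.56 CPM in control, and 105 bases with AL357673.1, at 2.305 and 1.93 CPM, both opposite. The part of these genes in the MRPL37 count was not tested. MRPS30 had a log2 fold change of -0.34 (SE 0.04) and fell, to 63.8 ± 1.77 CPM with TGF-β1 against 81.2 ± 3.32 CPM in control.

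MRPL51 and MRPL14 were the next to rise. MRPL51, specific to mitochondria (ENSG00000111639.7, chromosome 12, 6491886 to 6493841, minus strand), had 131, 132, 132 and 144 CPM with TGF-β1 and 99.6, 97.6, 103 and 103 CPM in control. All TGF-β1 libraries were higher, with a log2 fold change of 0.42 (SE 0.04) and adjusted p = 4.94e-08. Of its annotated exon bases, 486 lie opposite exons of NCAPD2, a condensin subunit gene with 283 CPM with TGF-β1 and 231 CPM in control. If the counter ignored strand, reads of both genes cannot be told apart there, so the MRPL51 value is uncertain. MRPL14, whose bacterial counterpart lies at the interface between the subunits (ENSG00000180992.6, chromosome 6, 44113454 to 44127457, minus strand), shares no exonic base with another annotated gene. It had 23.2, 26.2, 26.04 and 26.3 CPM with TGF-β1 and 16.5, 17.6, 18.03 and 17.6 CPM in control, a log2 fold change of 0.55 (SE 0.05) with adjusted p = 7.15e-08. The other members that rose did so by less: MRPL16, MRPL18, MRPL44, MRPL48 and MRPL52 in the large subunit, and MRPS6, MRPS14, MRPS21, MRPS25 and MRPS27 in the small one, with log2 fold changes of 0.11 to 0.25. On the opposite strand, MRPS14 shares 351 exonic bases with CACYBP, which changed by 0.22, and MRPS25 shares 1197 with NR2C2, which changed by 0.32. AC073641.1 opposite MRPL44 changed by 0.24 and PTCD2 opposite MRPS27 by -0.58. The part of these genes in the counts was not tested. With library totals 7 of the 13 calls were lost, those for MRPL18, MRPL44, MRPL48, MRPL52, MRPS21, MRPS25 and MRPS27, at log2 fold changes of 0.01 to 0.08. The calls for MRPS25 and MRPS27 also ended without some single control library: MRPS25 without S4 (0.08), and MRPS27 without S1 (0.09), S2 (0.07) or S3 (0.09).

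Members of both subunits fell. MRPS35, a small-subunit protein specific to mitochondria (ENSG00000061794.12, chromosome 12, 27710773 to 27756295, plus strand), had 88.1, 93.4, 93.9 and 91.7 CPM with TGF-β1 and 151, 151, 148 and 151 CPM in control. The groups were far apart, at a log2 fold change of -0.71 (SE 0.03) and adjusted p = 9.62e-12. MRPL42, a large-subunit protein without a bacterial counterpart (ENSG00000198015.12, chromosome 12, 93467488 to 93516213, plus strand), had 62.3, 65.1, 68.6 and 67.3 CPM with TGF-β1 and 101, 106, 107 and 103 CPM in control. Its log2 fold change was -0.66 (SE 0.04), adjusted p = 1.19e-10. MRPS10, in the head of the small subunit (ENSG00000048544.5, chromosome 6, 42206801 to 42217865, minus strand), had 40.99, 42.5, 42.1 and 44.4 CPM with TGF-β1 and 60.4, 62.1, 62.6 and 62.4 CPM in control, with log2 fold change -0.54 (SE 0.04) and adjusted p = 1.01e-09. In these 3 genes the libraries of both groups lay wide apart.

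MRPL46, MRPL1 and MRPL58 of the large subunit fell as well. MRPL46 (ENSG00000259494.1, chromosome 15, 88459476 to 88467419, minus strand) is transcribed away from MRPS11, with 34 bases between their starts. It had 27.7, 31.2, 29.1 and 28.9 CPM with TGF-β1 and 45.4, 45.1, 47.4 and 45.4 CPM in control, a log2 fold change of -0.64 (SE 0.04) with adjusted p = 6.77e-10. MRPS11, from the other side of the shared start region, fell less, with a log2 fold change of -0.17 (SE 0.04) and adjusted p = 0.001502. MRPL1, a protein of the mobile stalk beside the exit site for transfer RNA, had a log2 fold change of -0.52 (SE 0.05), adjusted p = 1.50e-07, and MRPL58, a peptidyl-tRNA hydrolase that became a ribosomal protein, -0.50 (SE 0.04), adjusted p = 6.50e-09. MRPL12, which forms the stalk that recruits translation factors, fell by 0.33 on the log2 scale (adjusted p = 5.23e-07). MRPS16 fell by 0.27 and MRPL3 by 0.18 on that scale, while MRPS22, at 0.08 (SE 0.05) with adjusted p = 0.151, and MRPS7, at -0.07 (SE 0.03) with adjusted p = 0.0961, did not pass the test.

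**Figure D2:**
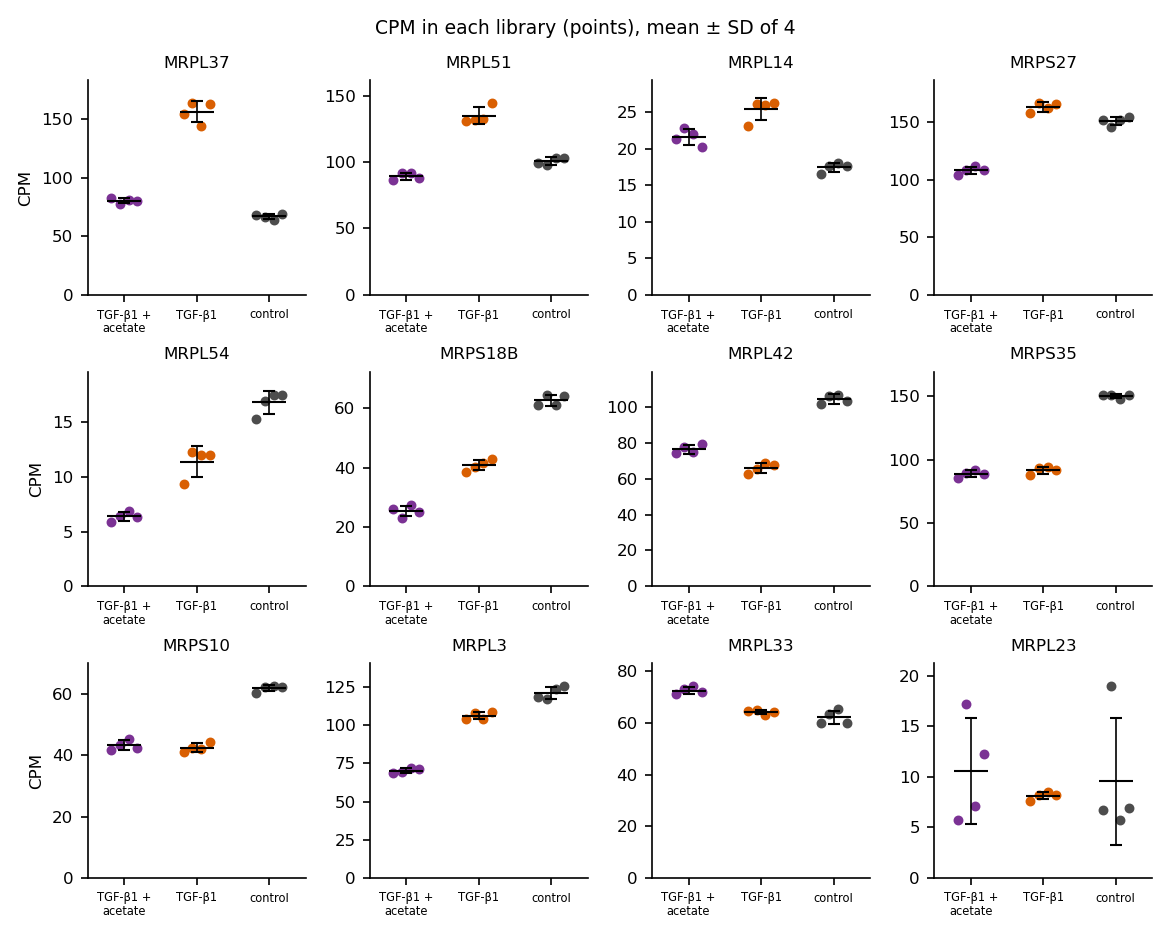
CPM of 12 members in each library (points) with the mean and SD of 4 (bars), in libraries with TGF-β1 and acetate, TGF-β1 and control. MRPL37 stands at 145 to 164 CPM with TGF-β1 against 64.1 to 69.2 CPM in control, MRPL54 and MRPS18B are lowest with acetate, and MRPL23 is scattered.

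TGF-β1 and acetate against TGF-β1 asks what acetate added. Of the 78 members 55 fell, 3 rose and 20 did not pass, beside 30.4% of all 22336 genes tested that fell and 33.3% that rose. These are 70.5% and 3.85% of the members. Their median log2 fold change was -0.22, beside 0.03 over all genes. The libraries of the 2 groups did not overlap for 46 members that were lower and 2 that were higher, against 27.4% and 30% of all genes. By more than 1.5-fold, 8 members fell and none rose, beside 8.26% and 18.5% of all genes. The scaling matters here: with library totals 34 members were lower and 15 higher, beside 21.0% and 42.9% of all genes. It moved the median of all genes to 0.16, and the members stood 0.25 below the median of all genes in both scalings.

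MRPL37 again moved most, now downward. It had 82.6, 78.1, 81.02 and 80.6 CPM with TGF-β1 and acetate and 155, 164, 145 and 163 CPM with TGF-β1, a log2 fold change of -0.95 (SE 0.04) with adjusted p = 2.79e-11. All 4 acetate libraries lay below all 4 TGF-β1 libraries and above all 4 control libraries. SSBP3 had 25.03 CPM with TGF-β1 and acetate and 39.97 CPM with TGF-β1. MRPL51 had 86.7, 91.6, 91.7 and 87.7 CPM with TGF-β1 and acetate, with a log2 fold change of -0.58 (SE 0.04) against TGF-β1 and adjusted p = 2.85e-09; NCAPD2 opposite it changed by -0.68. MRPS27, an RNA-binding protein of the small subunit (ENSG00000113048.16, chromosome 5, 72219409 to 72320646, minus strand), had 104, 108, 112 and 109 CPM with TGF-β1 and acetate and 158, 167, 162 and 166 CPM with TGF-β1. It fell clear of any overlap, at a log2 fold change of -0.58 (SE 0.03) and adjusted p = 7.62e-10.

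Some members fell with acetate that were already below control with TGF-β1. MRPL54, specific to mitochondria (ENSG00000183617.4, chromosome 19, 3762664 to 3768575, plus strand), had 5.86, 6.45, 6.92 and 6.34 CPM with TGF-β1 and acetate, 9.32, 12.3, 11.996 and 11.96 CPM with TGF-β1 and 15.3, 16.9, 17.5 and 17.5 CPM in control. Each group lay wholly below the next, with log2 fold changes of -0.82 (SE 0.09) for acetate against TGF-β1 (adjusted p = 8.62e-07) and -0.56 (SE 0.08) for TGF-β1 against control (adjusted p = 8.45e-06). MRPS18B, one of 3 human relatives of the bacterial protein S18 (ENSG00000204568.11, chromosome 6, 30617709 to 30626395, plus strand), had 25.9, 23.2, 27.5 and 25.1 CPM with TGF-β1 and acetate, 38.7, 40.4, 41.7 and 42.8 CPM with TGF-β1 and 61.2, 64.7, 61.3 and 64.1 CPM in control. It too formed 3 separate levels, at log2 fold changes of -0.67 (SE 0.05) (adjusted p = 1.54e-08) and -0.61 (SE 0.04) (adjusted p = 6.57e-10) for the same pairs. Its relatives moved less: MRPS18A had -0.18 for acetate and -0.33 for TGF-β1, and MRPS18C had -0.25 and 0.03. MRPL24, at the exit tunnel, had -0.46 and -0.37, and MRPL12 of the factor-binding stalk -0.47 and -0.33, all 4 values past the test.

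Others fell mainly in the acetate comparison. MRPL3, a core protein of the large subunit (ENSG00000114686.8, chromosome 3, 131462212 to 131502983, minus strand), had 68.6, 69.2, 72.1 and 71.1 CPM with TGF-β1 and acetate, 104, 108, 104 and 109 CPM with TGF-β1 and 118, 117, 123 and 126 CPM in control. The acetate libraries were far below both other groups, at a log2 fold change of -0.59 (SE 0.03) against TGF-β1 with adjusted p = 5.25e-10. MRPL9, MRPL15 and MRPL11, all with bacterial counterparts, had log2 fold changes of -0.65, -0.68 and -0.57 with acetate, with adjusted p from 1.77e-09 to 1.86e-08. For TGF-β1 against control the same genes had -0.07, -0.22 and 0.06, of which only MRPL15 passed the test. MRPL9 shares exonic bases with OAZ3, AL589765.7 and AL589765.4, which changed by -0.51, -0.72 and -0.62 with acetate. PELI3, which shares exonic bases with MRPL11, changed by 0.77. The part of these genes in the counts was not tested. MRPL45, which tethers the ribosome to the inner membrane beside the exit tunnel, had -0.47 (SE 0.04) with acetate, adjusted p = 1.45e-07. In the small subunit, MRPS7 and MRPS2 fell by 0.49 and 0.41 on the log2 scale (adjusted p = 9.70e-09 and 1.67e-05).

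The 3 members that rose with acetate were MRPL33, MRPL34 and MRPL42, all of the large subunit. MRPL42 had 74.03, 77.6, 74.7 and 79.3 CPM with TGF-β1 and acetate and 62.3, 65.1, 68.6 and 67.3 CPM with TGF-β1, a log2 fold change of 0.22 (SE 0.04) with adjusted p = 9.72e-05. The groups did not overlap, and all acetate libraries stayed below control. With counts adjusted for transcript length the change was 0.07 (adjusted p = 0.229, edgeR). That adjustment took the longest transcript of each gene, 15582 bases for MRPL42, where its RPKM used 920 bases. MRPL33 had 71.1, 73.03, 74.4 and 71.9 CPM with TGF-β1 and acetate and 64.6, 64.9, 63.2 and 64.4 CPM with TGF-β1, a log2 fold change of 0.19 (SE 0.03), adjusted p = 0.000167. It shares 324 exonic bases on its own strand with BABAM2, a DNA repair complex gene that changed by 0.87, so the reads of this small gene are uncertain. MRPL34 had 19.97, 17.7, 22.7 and 19.2 CPM with TGF-β1 and acetate and 15.1, 17.4, 18.4 and 17.6 CPM with TGF-β1, with overlapping groups and a log2 fold change of 0.23 (SE 0.08), adjusted p = 0.0159. Its 223 bases opposite ABHD8 carry the same uncertainty, since ABHD8 changed by 1.32. Without TGF-β1 library S15 or acetate library S24 the MRPL34 value was 0.14 or 0.15 and did not pass.

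MRPS35 and MRPS10, which fell with TGF-β1, did not pass the test for acetate. MRPS35 had 85.4, 89.6, 91.9 and 89.1 CPM with TGF-β1 and acetate, overlapping TGF-β1 at a log2 fold change of -0.03 (SE 0.04) (adjusted p = 0.426). MRPS10 had 41.6, 43.3, 45.4 and 42.5 CPM, likewise overlapping, at 0.03 (SE 0.04) (adjusted p = 0.4699). MRPS30, at -0.01, and MRPS5, at 0.01, did not pass either. With library totals all 4 were called higher, MRPS35 at 0.10 (adjusted p = 0.0236), MRPS10 at 0.17 (adjusted p = 0.00134), MRPS30 at 0.13 (adjusted p = 0.0105) and MRPS5 at 0.14 (adjusted p = 0.00382). A difference between the TGF-β1 and acetate effects on a member was not tested, and both comparisons share the TGF-β1 libraries.

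**Figure D3:**
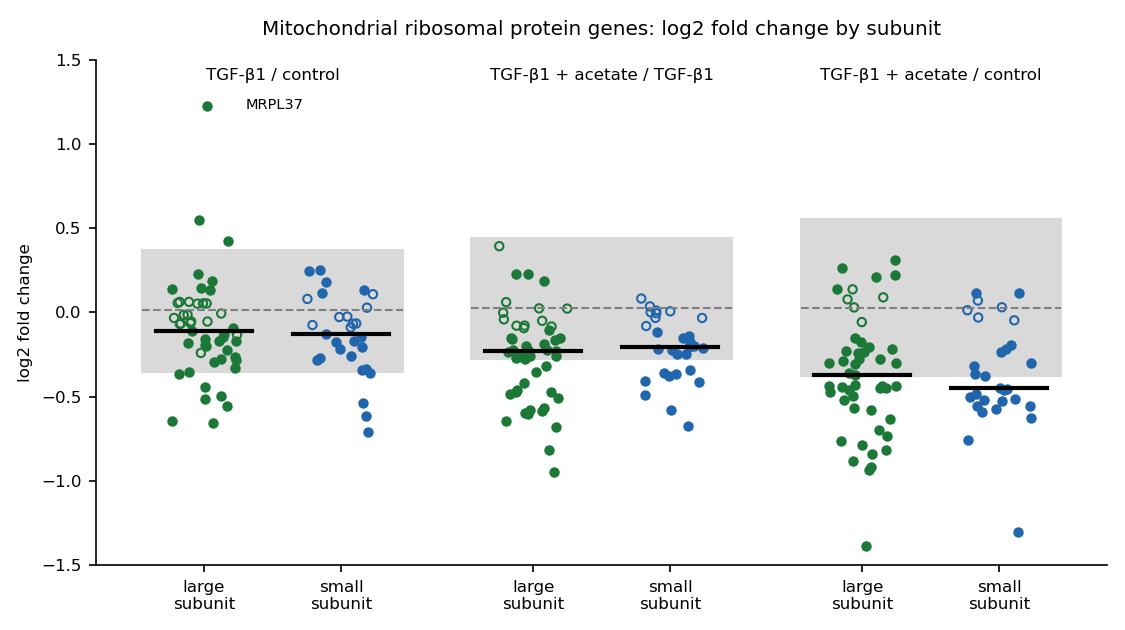
Log2 fold change of each member (points; filled where the adjusted p is below 0.05) by subunit in 3 comparisons, with the subunit median (black line), the median of all genes tested (dashed) and the middle 50% of all genes (grey). Medians of both subunits lie below that of all genes in each comparison, and MRPL37 stands apart at 1.23 for TGF-β1 against control.

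TGF-β1 and acetate against control sets both treatments together against the control. Of the 78 members 61 fell, 7 rose and 10 did not pass, beside 34.4% of all 22742 genes tested that fell and 36.1% that rose. The median log2 fold change of the members was -0.41, beside 0.02 over all genes. Groups did not overlap for 60 members that were lower and 6 that were higher, against 31.6% and 32.4% of all genes. By more than 1.5-fold 15 members (19.2%) fell and none rose, beside 14.7% and 22.8% of all genes. The largest fall was in MRPL54, to 6.39 CPM with TGF-β1 and acetate against 16.8 CPM in control, a log2 fold change of -1.39 (SE 0.08) with adjusted p = 1.45e-11. MRPS18B followed at -1.304 (SE 0.05), adjusted p = 9.03e-15, then MRPL58, MRPL15 and MRPL46 at -0.94, -0.92 and -0.88, each with an adjusted p of 5.27e-13 or less. In the small subunit, MRPS35, MRPS9 and MRPS15 came next, at -0.76, -0.63 and -0.59. The 7 members that rose were MRPL14, MRPL16, MRPL33, MRPL37, MRPL52, MRPS14 and MRPS25, by 0.11 to 0.31 on the log2 scale, with MRPL14 at 0.31 (SE 0.05) and MRPL37 at 0.26 (SE 0.04). The call for MRPS14, at 0.12 (SE 0.04), was lost without each of the control libraries S1, S2 and S3 (0.11, 0.10 and 0.11), without acetate library S23 (0.08) and with DESeq2 (0.09). That for MRPS25 was lost without control library S2 or S4 (0.09 in both).

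The summed level of the members followed the same order. It was 3142 ± 77.2 CPM with TGF-β1 and acetate, 3796 ± 125 CPM with TGF-β1 and 4098 ± 47.7 CPM in control (SD, n = 4 each). The groups did not overlap, with ranges of 3084 to 3255, 3628 to 3917 and 4061 to 4163 CPM. The acetate sum was 76.7% of control and 82.8% of TGF-β1, and the TGF-β1 sum 92.6% of control, or 90.3% without MRPL37. Library S15 was the lowest of the TGF-β1 group at 3628 CPM.

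Large and small subunit genes were compared next, since one ribosome needs both. Their counts stand beside 32.8% of all genes that fell and 34.1% that rose for TGF-β1 against control. The shares were 30.4% and 33.3% for acetate against TGF-β1, and 34.4% and 36.1% for TGF-β1 and acetate against control. For TGF-β1 against control, 24 of 49 MRPL genes fell and 8 rose, with a median of -0.11, and 15 of 29 MRPS genes fell and 5 rose, with a median of -0.13. For acetate against TGF-β1, 35 MRPL genes fell and 3 rose (median -0.23), and 20 MRPS genes fell and none rose (median -0.21). Against control, TGF-β1 with acetate lowered 39 MRPL and 22 MRPS genes and raised 5 and 2, at medians of -0.37 and -0.45. The subunit medians were thus within 0.08 of each other in each comparison. Symbols do not fully match the structure: the products of MRPS30 and MRPS18A lie in the large subunit, and that of MRPS36 belongs to a Krebs cycle enzyme complex. Placed by structure, the medians for TGF-β1 against control were -0.13 for the large and -0.08 for the small subunit, the opposite order.

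Summed per subunit, the large-subunit genes had 1792 ± 41.4 CPM with TGF-β1 and acetate, 2217 ± 74.9 CPM with TGF-β1 and 2313 ± 27.3 CPM in control. The small-subunit genes had 1350.0 ± 36.1, 1579.7 ± 50.5 and 1785 ± 20.8 CPM in these groups. With TGF-β1 the large-subunit sum was 95.8% of control and the small-subunit sum 88.5%. The ratio of summed RPKM, large over small, was 1.83 ± 0.0147 with TGF-β1 and acetate, 1.87 ± 0.0139 with TGF-β1 and 1.74 ± 0.0108 in control. Every treated library lay above every control library in this ratio. Without MRPL37 it was 1.77 ± 0.01497, 1.78 ± 0.0146 and 1.703 ± 0.0118, still without overlap between treated and control libraries. MRPL51, whose count is uncertain, stayed in this ratio as the member with the highest RPKM, at 162, 245 and 183 RPKM in these groups. The part of MRPL51 in the ratio was not tested, and the ratio was not taken with subunits placed by structure.

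**Figure D4:**
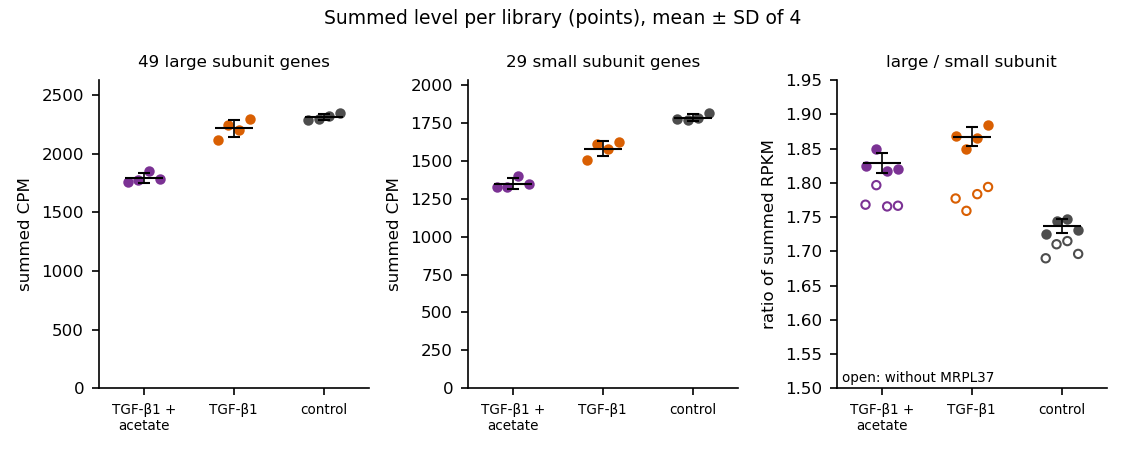
Summed CPM of the 49 large and 29 small subunit genes, and the ratio of their summed RPKM (axis starting at 1.5), per library (points) with mean and SD of 4; open points leave out MRPL37. Both sums are lowest with TGF-β1 and acetate, and the ratio is lowest in control, at 1.72 to 1.75.

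Members were also split into those with a bacterial counterpart and those specific to mitochondria, leaving out MRPS36. For TGF-β1 against control, 19 of 45 members with a bacterial counterpart fell and 6 rose (median -0.08), and 19 of 32 specific to mitochondria fell and 7 rose (median -0.15). For acetate against TGF-β1, 34 of the 45 fell and 2 rose (median -0.22), and 20 of the 32 fell and 1 rose (median -0.22). Among all genes tested 32.8% fell and 34.1% rose with TGF-β1, and 30.4% fell and 33.3% rose with acetate. The widest spread for TGF-β1 was among members specific to mitochondria, which hold both MRPL37 and MRPS35.

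Reads shared with other genes bear on these counts, because the strand setting of the counter is not given. Of the 78 members 41 share exonic bases with another annotated gene. Among the 37 that share none, 25 fell and 6 rose for TGF-β1 against control, 27 fell and none rose for acetate against TGF-β1, and 32 fell and 3 rose for TGF-β1 and acetate against control. Pseudogenes bearing a member's name exist for 34 members in GENCODE release 29, and among the 20 members with neither an overlap nor such a pseudogene 12 fell and 4 rose, 13 fell and none rose, and 17 fell and 3 rose in the same comparisons. The shares of all genes tested that fell and rose were 32.8% and 34.1%, 30.4% and 33.3%, and 34.4% and 36.1%. MRPS6, which encodes a small-subunit protein (ENSG00000243927.5, chromosome 21, 34073224 to 34143034, plus strand) and was called higher with TGF-β1 at 0.25 (SE 0.06), shares 273 exonic bases with the inositol transporter gene SLC5A3 on its own strand, and SLC5A3 changed by 0.26. Same-strand readthrough or unnamed genes over MRPL12, MRPL46 and MRPS24 changed by -0.55, -0.71 and -0.07 with TGF-β1, where these members themselves had -0.33, -0.64 and -0.07.

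Start regions were read from RefSeq windows of 300 bases on GRCh38.p14, from 250 bases before to 50 after the start, which were found for 69 of the 78 members. The letters CCGGAAG, a site of ETS factors such as GABP, stood on either strand in 29 of 69 windows (42.0%), against 10.67% of all 27305 windows and 14.23% of 15842 windows of coding genes. AAGATGGCG, a YY1 site, was in 13 (18.8%), against 1.85% of all and 2.74% of coding windows. The core site of NRF1 was in 8 (11.6%), against 6.28% and 8.57%. GABP, NRF1 and YY1 are known regulators of nuclear genes for mitochondria. CCAAT was in 20 (29%), against 35.7% of all windows, and TATAAA in 2, MRPL54 and MRPS15, against 11.95% of all. The E-box CACGTG was in 6 (8.7%), against 7.43% of all, and the cAMP response element TGACGTCA in none, against 1.98%. The SMAD palindrome GTCTAGAC was in none and is in 0.2% of all windows, and TGANTCA, an AP-1 site, was in 1, MRPS35, and is in 7.76% of all windows. For TGF-β1 against control, 16 of the 29 members with the ETS letters fell and 5 rose (median -0.13), and 18 of the 40 without them fell and 8 rose (median -0.07). Of the 13 with the YY1 letters 9 fell and 1 rose (median -0.33), and of the 56 without them 25 fell and 12 rose (median -0.07). For acetate against TGF-β1 19 of the 29 fell and 1 rose (median -0.22), and 29 of the 40 fell and 2 rose (median -0.22). With the YY1 letters 8 of the 13 fell and 1 rose (median -0.18), and without them 40 of the 56 fell and 2 rose (median -0.23). Splits by CCAAT and the NRF1 core were made too. For TGF-β1 against control 9 of 20 with CCAAT fell and 6 rose (median -0.02), without it 25 of 49 and 7 (-0.11). With the NRF1 core 5 of 8 fell and 1 rose (-0.13), without it 29 of 61 and 12 (-0.08). For acetate 16 of 20 with CCAAT fell and none rose (-0.21), without it 32 of 49 and 3 (-0.22). With the NRF1 core 7 of 8 fell and none rose (-0.24), without it 41 of 61 and 3 (-0.21). Among all genes tested 32.8% fell and 34.1% rose with TGF-β1, and 30.4% fell and 33.3% rose with acetate. A match is a description of letters, not a bound site.

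Stretches before 5 of these starts are shown because their genes mark the main patterns: MRPL37 (up with TGF-β1, down with acetate), MRPL54 (down in both), MRPL42 (down with TGF-β1, up with acetate), MRPL3 (down mainly with acetate) and MRPS10 (down with TGF-β1). Capitals mark matches to the sites above, and each run is written 5′ to 3′ on the gene's strand. MRPL37 is chr1:54200074-54200166 (plus strand, cut to 93 bases free of annotated exons), MRPL54 chr19:3762432-3762681 (plus), MRPL42 chr12:93467264-93467513 (plus), MRPL3 chr3:131502972-131503221 (minus) and MRPS10 chr6:42217862-42218111 (minus).
MRPL37: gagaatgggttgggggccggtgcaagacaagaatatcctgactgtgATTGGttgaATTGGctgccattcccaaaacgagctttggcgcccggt
MRPL54: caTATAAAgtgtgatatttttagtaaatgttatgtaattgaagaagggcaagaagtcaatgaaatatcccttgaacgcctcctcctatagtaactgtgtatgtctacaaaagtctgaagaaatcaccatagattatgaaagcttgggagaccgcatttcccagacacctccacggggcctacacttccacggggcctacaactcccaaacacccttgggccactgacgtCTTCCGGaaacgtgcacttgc
MRPL42: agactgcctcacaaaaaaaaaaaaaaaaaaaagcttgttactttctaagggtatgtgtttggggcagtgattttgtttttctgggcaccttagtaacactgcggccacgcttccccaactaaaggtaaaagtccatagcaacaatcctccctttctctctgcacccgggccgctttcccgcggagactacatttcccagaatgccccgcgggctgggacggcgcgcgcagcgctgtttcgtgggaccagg
MRPL3: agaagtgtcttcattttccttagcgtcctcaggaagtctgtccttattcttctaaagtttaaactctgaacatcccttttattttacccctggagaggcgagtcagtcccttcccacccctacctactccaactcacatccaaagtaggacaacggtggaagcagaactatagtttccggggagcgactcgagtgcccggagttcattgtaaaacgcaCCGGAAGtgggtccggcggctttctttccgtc
MRPS10: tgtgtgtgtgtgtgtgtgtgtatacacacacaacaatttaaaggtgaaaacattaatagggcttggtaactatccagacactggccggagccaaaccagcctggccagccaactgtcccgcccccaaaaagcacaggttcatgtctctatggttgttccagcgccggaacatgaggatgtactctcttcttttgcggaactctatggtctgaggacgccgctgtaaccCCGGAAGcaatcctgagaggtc
The MRPL54 stretch holds the ETS letters close to its start and TATAAA far from it, and MRPL3 and MRPS10 each hold the ETS letters once. The MRPL37 stretch holds the reverse complement of CCAAT in 2 places. Outside the printed stretches, the window of MRPS10 also holds the YY1 letters and that of MRPL37 the E-box. None of the searched letters stands in the MRPL42 stretch; its YY1 letters lie after the start.

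The other genes of the pathway were taken from fixed lists of proteins that complete, assemble or use the mitochondrial ribosome. Their counts stand beside 32.8% of all genes that fell and 34.1% that rose with TGF-β1, and 30.4% and 33.3% with acetate. Of 5 mitoribosomal proteins with other names, 3 (60%) fell and 1 (20%) rose with TGF-β1, and all 5 fell with acetate. DAP3, the GTP-binding protein of the small subunit, had 74.3 CPM with TGF-β1 and acetate, 79.1 CPM with TGF-β1 and 95.7 CPM in control, with log2 fold changes of -0.08 and -0.27. The acetate call for DAP3 was lost without acetate library S23 (-0.09), S24 (-0.08) or S25 (-0.07), and with library totals the value was 0.05. GADD45GIP1, a large-subunit protein, had log2 fold changes of -0.48 (SE 0.05) for acetate and -0.21 (SE 0.04) for TGF-β1. PTCD3, a small-subunit protein at the entry of messenger RNA, had -0.18 and -0.17, and both passed, the acetate call being lost with library totals.

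Of 26 assembly factors, 11 (42.3%) fell and 6 (23.1%) rose with TGF-β1 and 15 (57.7%) fell and 3 (11.5%) rose with acetate. GTPBP10, a GTPase that matures the large subunit, had 26.1 CPM with TGF-β1 and acetate, 31.2 CPM with TGF-β1 and 54.1 CPM in control, and fell with TGF-β1 by a log2 fold change of -0.79 (SE 0.04) (adjusted p = 5.28e-11). NSUN4, which methylates the small-subunit RNA, had -0.60 for TGF-β1 and fell. FASTKD2, which binds the large-subunit RNA, had -0.58 (SE 0.05) for acetate (adjusted p = 5.32e-08), and RBFA, a small-subunit maturation factor, -0.55 (SE 0.06) (adjusted p = 3.79e-07). NGRN, needed for the large-subunit RNA, fell in both comparisons, at -0.32 for acetate and -0.42 for TGF-β1.

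Of 17 translation factors, 9 (52.9%) fell and none rose with TGF-β1, and 9 fell and 3 (17.6%) rose with acetate. MTIF2, the initiation factor, had 50.8 CPM with TGF-β1 and acetate, 70.5 CPM with TGF-β1 and 113 CPM in control. Both steps passed, at log2 fold changes of -0.46 (SE 0.04) (adjusted p = 1.62e-07) and -0.68 (SE 0.04) (adjusted p = 3.52e-11). GFM1, the elongation factor that moves the ribosome along, fell with TGF-β1 at -0.59 (SE 0.04) and had 0.07 (SE 0.03) with acetate, which did not pass (adjusted p = 0.0912). MRRF, the recycling factor, had -0.40 for TGF-β1 and fell, and PDF, which removes the formyl group from new chains, had -0.40 for acetate and fell. MTRF1L, a release factor, was among the 3 that rose with acetate, at 0.25.

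Of 21 genes for mitochondrial transcription, RNA processing and DNA maintenance, 7 (33.3%) fell and 10 (47.6%) rose with TGF-β1, the falls being near the share of all genes, and 15 (71.4%) fell and 2 (9.52%) rose with acetate. LRPPRC, which stabilises mitochondrial messenger RNAs, had 402 CPM with TGF-β1 and acetate, 437 CPM with TGF-β1 and 603 CPM in control. It fell with TGF-β1 at -0.46 (SE 0.03), as did PNPT1 and SUPV3L1, the RNA-degrading pair, at -0.53 and -0.51. TFB2M, a transcription factor of mitochondrial DNA, had -0.46 for acetate and -0.42 for TGF-β1, both past the test. ELAC2, which cuts transfer RNA from precursors, rose with TGF-β1 at 0.34 and fell with acetate at -0.33.

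Of 10 regulators of mitochondrial biogenesis, 4 (40%) fell and 3 (30%) rose with TGF-β1, shares near those of all genes, and 7 (70%) fell and 2 (20%) rose with acetate. PPARGC1A, the coactivator PGC-1α, had 4.56, 4.45, 4.99 and 5.59 CPM with TGF-β1 and acetate, 1.86, 1.26, 1.499 and 1.53 CPM with TGF-β1 and 9.58, 10.6, 9.298 and 9.48 CPM in control. Its groups were separate, with log2 fold changes of 1.68 (SE 0.13) for acetate and -2.65 (SE 0.10) for TGF-β1, the direction for acetate being opposite to that of most members. GABPB1, a subunit of the GABP factor, had 38.6, 42.3, 39.9 and 39.1 CPM with TGF-β1 and acetate, 64.7, 65.5, 65.998 and 67.3 CPM with TGF-β1 and 58.04, 58.3, 59.7 and 60.5 CPM in control. It fell clearly with acetate, at -0.71 (SE 0.04) (adjusted p = 2.23e-10), and its other changed value, 0.16 (SE 0.03) for TGF-β1, was lost with library totals (0.06). GABPB2, its relative, had -0.71 for acetate and -0.95 for TGF-β1 and fell in both. MYC, a growth regulator that also acts on genes for ribosomes, had -0.55 and -0.18 and fell in both.

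Ribosomal protein genes of the cytosol, which build the ribosome outside mitochondria, mostly rose with TGF-β1 and fell with acetate. Of 83 tested, 71 (85.5%) were called higher and 3 (3.61%) lower at a median of 0.26, where the mitochondrial members had -0.12 and the 3 stalk genes RPLP0, RPLP1 and RPLP2 had 0.23, 0.20 and 0.24. With acetate, 81 of 84 (96.4%) fell and none rose, at a median of -0.54, against -0.22 for the mitochondrial members. RPLP0 had -0.65 (SE 0.04), RPLP1 -0.68 (SE 0.05) and RPLP2 -0.45 (SE 0.04). The difference between both families was not tested, and cytosolic ribosomal protein genes have many near-identical processed copies, so their counts are less certain.

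**Figure D5:**
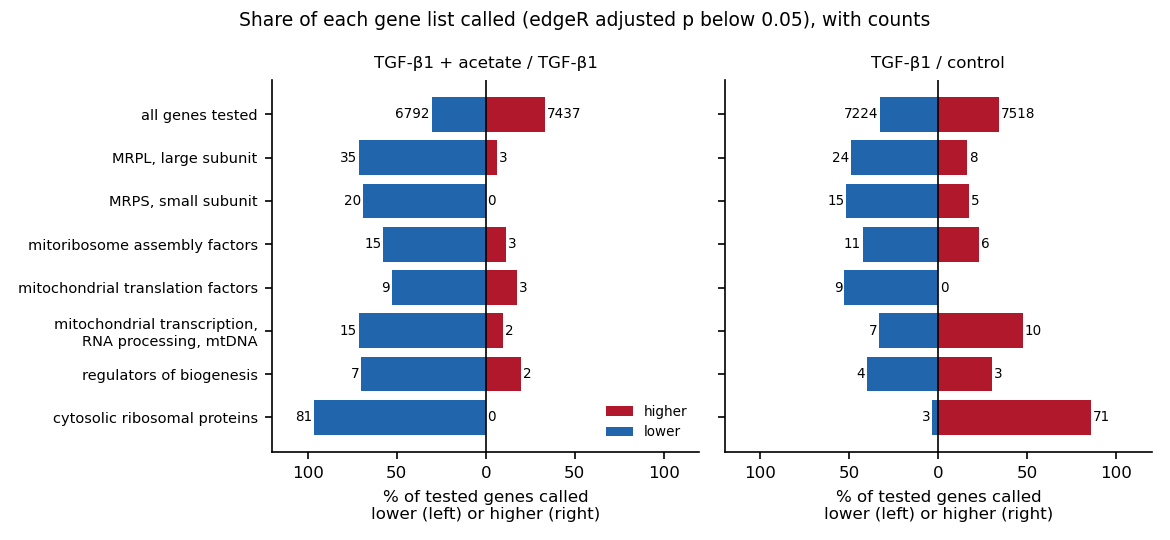
Percent of the tested genes of each list called lower (left, blue) or higher (right, red), with their numbers, for TGF-β1 and acetate against TGF-β1 (left panel) and TGF-β1 against control (right panel). Of the 78 MRPL and MRPS genes 50% are lower with TGF-β1 and 70.5% with acetate, and the cytosolic ribosomal protein genes are higher with TGF-β1 and lower with acetate.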

How the data were processed

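RNA of A549 cells was sequenced as stranded, ribosomal RNA-depleted paired reads of 75 bp, per the labels. The authors deposited raw read counts per gene in 2 tables, and the submitters' processing notes name bcl2fastq, HISAT2, limma and hg38; the counter with its strand setting, the annotation and all versions were not given in the sources used here. Of the per-library columns, 32 match no library of the groups compared here and were not used.

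Low genes were removed with filterByExpr, whose minimum count was 10 and minimum total 15. After TMM scaling, edgeR 4.0.16 (R 4.3.3) ran its two-sided quasi-likelihood test on each gene that was left, and a Benjamini-Hochberg adjusted p below 0.05 made a call. TGF-β1 against control and TGF-β1 with acetate against TGF-β1 were each fitted within the table that holds both groups. TGF-β1 with acetate against control, and all CPM, came from a joint fit of 12 libraries over the genes both tables share. RPKM divides CPM by the median length of basic protein-coding transcripts in GENCODE release 29, whose coordinates are given. Start regions were those of RefSeq for GRCh38.p14. The fit was tested on simulated data. DESeq2 1.42.0, limma 3.58.1, other scalings, no filter, GC and length offsets, the joint fit and each library left out were the alternatives.

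The members and the gene lists, matched for 82 of 82 genes, were chosen with earlier results of these data known. Named genes were, per comparison and subunit, the 4 highest and 4 lowest log2 fold changes and the 2 smallest p-values, a fixed list, the extremes of RPKM, and the 3 smallest p-values per pathway list. The classes by bacterial counterpart, the genes that overlap members, and MRPS11, MRPL18, MRPL48, MRPL52 and other members beyond that rule were chosen after their values were seen. Counting error is the limit of each library's depth, and 3 counts set the floor.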

Additional observations from a re-analysis of the deposited data

Results flagged for a closer look

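In 11 of 156 sets of 4 libraries (each of 49 named members, and the large, the small and the ratio of subunit sums, in 3 groups), 1 library stood apart from the other 3 by Dixon's ratio, which flags about 1 set in 20 by chance. With TGF-β1 and acetate, MRPL45 had 36.6 CPM in library S22 where the others had 39.6 to 40.2, MRPS18A had 19.2 CPM in S23, where the others had 21.3 to 21.7, and MRPS6 had 21.6 CPM in S24, where the others had 18.6 to 18.9. With TGF-β1, library S15 was low for 4 members: MRPL14 at 23.2 CPM (others 26.0 to 26.3), MRPL54 at 9.32 CPM (11.96 to 12.3), MRPS16 at 131 CPM (137 to 138) and MRPS21 at 51.1 CPM (55.1 to 55.6). MRPL51 was high in S18, at 144 CPM (131 to 132). In control, MRPL23 had 18.96 CPM in S2 (5.75 to 6.88), MRPL1 had 31.9 CPM in S3 (28.5 to 29.1) and MRPL46 had 47.4 CPM in S3 (45.1 to 45.4).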

How the results depend on the processing

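With library totals in place of TMM, 6 members were higher for TGF-β1 against control (13 as reported), and 15 were higher and 34 lower for acetate against TGF-β1 (3 and 55). For acetate against TGF-β1, 13 of the 78 members then changed sign, 2 of them called lower with TMM, and 21 of the 55 falls were no longer called. Among named genes past the threshold under either scaling, sign changed for MRPL16 (0.13), MRPS11 (0.0975), MRPS14 (0.012), MRPS30 (0.13), MRPS35 (0.10), DAP3 (0.0515) and LRPPRC (0.0219). Summed levels under that scaling were 1871 CPM with TGF-β1 and acetate, 2097 CPM with TGF-β1 and 2342 CPM in control for large-subunit genes, and 1409, 1494 and 1807 CPM for small-subunit genes. This scaling shifts the median of all genes, as given beside the counts. The large minus small median for TGF-β1 against control was -0.0479 with subunits placed by structure (0.0209 as reported). Leaving out single libraries gave 10 to 15 higher and 33 to 44 lower members for TGF-β1 against control, with 33 without TGF-β1 library S15 and 44 without control library S2, and a large minus small difference of -0.0020 to 0.049. It gave 2 to 4 higher and 51 to 59 lower for acetate against TGF-β1, and 5 to 7 and 61 to 62 for TGF-β1 and acetate against control. MRPL23 for TGF-β1 against control ranged from -0.43 to 0.30, with 0.30 without control library S2. No paired analysis was possible because the count columns carry no replicate number. Counting error weighs most on MRPL23 and MRPL54, the members with the lowest CPM. The coefficient of variation of MRPL23 was 65.7% in control, and the source of that scatter was not tested.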
